A study of Mus musculus with 12 samples.

Results

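The genes described here are p53 (Trp53) and 8 of its transcriptional targets, most of which restrain or monitor the cell cycle: Cdkn1a, Ccng1, Mdm2, Trp53inp1, Gadd45a, Btg2, Zmat3 and Phlda3. All probe sets that the array platform's annotation gives to these symbols were taken, and each was followed singly. A probe set is a group of short probes that together report 1 transcript or 1 group of transcripts. The rule found 15 of the 45101 probe sets and 8 of the 18193 genes with 1 symbol. Ccng1 and Mdm2 had 3 probe sets each, Cdkn1a, Trp53inp1 and Btg2 had 2 each, and Gadd45a, Zmat3 and Phlda3 had 1 each. Trp53 was not analysed here. Probe sets of 1 gene share their target and are not independent of each other.

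The 12 arrays measured RNA of mouse bone marrow cells in culture, with 3 arrays for each of 4 conditions. All cells, controls included, carried a retrovirus for NUP98-HOXD13, a fusion of a nucleoporin with a homeobox protein that occurs in myeloid leukaemia. The marrow came from 5-fluorouracil-treated (C57Bl/6Ly-Pep3b x C3H/HeJ) F1 mice, and the transduced cells were grown for 4 weeks in medium with 15% serum and 3 cytokines (10 ng/ml human IL-6, 6 ng/ml mouse IL-3, 100 ng/ml mouse stem cell factor). The virus with the tested construct was then added by 2 days of growth on virus-producing E86 cells irradiated with 4000 cGy, and cells were sorted before lysis. The control group, MIY-ctrl, received the vector with YFP alone. The MEIS1-WT group received wild-type MEIS1, a homeodomain cofactor of HOX proteins. The MEIS1-deltaHD group received MEIS1 without its homeodomain, the DNA-binding part. The M33-MEIS1 group received a construct that the labels name without describing it further. The arrays of a group come from independent experiments according to the series record, although it does not say whether these began from separate marrow. Both genes were carried by retroviruses, so the levels are those of transduced cells in culture.

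p53 is held at a low level by MDM2, which marks it for degradation and is itself made on p53's order, so that the pair forms a feedback loop. After DNA damage or other stress p53 is stabilised, binds pairs of short sites in DNA and switches on its targets. CDKN1A (p21) then blocks cyclin-dependent kinases, and E2F and DREAM target genes of the cell cycle are held down. In blood stem and progenitor cells p53 and p21 are known for limiting proliferation and for guarding quiescence. Several of the same targets, Cdkn1a, Gadd45a and Btg2 among them, are also controlled without p53, by differentiation, growth factor and stress signals.

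Promoter sequences are shown for the genes whose 250 bases before the RefSeq transcription start held a p53 binding motif. Btg2 is shown too, since its window held a cAMP response element, the site of CREB and ATF factors. Sites outside these windows were not searched. RefSeq windows (GRCm38.p6) were matched for 6 of the 8 genes, 7 windows in all, because Cdkn1a has 2 starts. Capitals mark the motif, found on either strand. No 2 of the marked matches overlap.
Cdkn1a, upstream start, chr17:29090729-29090978, plus strand: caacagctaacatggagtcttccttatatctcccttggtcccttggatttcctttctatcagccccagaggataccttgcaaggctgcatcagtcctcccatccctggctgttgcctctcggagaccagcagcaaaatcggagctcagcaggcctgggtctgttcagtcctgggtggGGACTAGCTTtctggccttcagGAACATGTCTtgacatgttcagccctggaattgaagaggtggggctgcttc
Ccng1, chr11:40755287-40755536, minus strand: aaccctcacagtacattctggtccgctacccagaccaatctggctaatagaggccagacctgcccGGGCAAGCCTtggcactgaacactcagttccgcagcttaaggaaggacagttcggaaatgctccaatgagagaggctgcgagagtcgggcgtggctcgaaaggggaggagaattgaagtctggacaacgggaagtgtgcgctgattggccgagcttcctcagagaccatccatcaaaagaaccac
Mdm2, chr10:117710759-117711008, minus strand: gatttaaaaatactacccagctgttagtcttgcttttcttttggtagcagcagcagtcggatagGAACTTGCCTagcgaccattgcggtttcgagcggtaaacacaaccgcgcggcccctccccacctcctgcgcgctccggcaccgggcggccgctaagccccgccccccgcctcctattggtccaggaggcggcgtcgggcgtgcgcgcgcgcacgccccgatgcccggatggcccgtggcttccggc
Gadd45a, chr6:67037408-67037657, minus strand: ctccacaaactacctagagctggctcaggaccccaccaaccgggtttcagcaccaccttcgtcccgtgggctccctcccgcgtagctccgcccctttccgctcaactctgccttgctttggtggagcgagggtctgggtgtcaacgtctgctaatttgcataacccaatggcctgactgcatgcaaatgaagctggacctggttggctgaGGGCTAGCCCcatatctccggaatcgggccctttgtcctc
Btg2, chr1:134079156-134079405, minus strand: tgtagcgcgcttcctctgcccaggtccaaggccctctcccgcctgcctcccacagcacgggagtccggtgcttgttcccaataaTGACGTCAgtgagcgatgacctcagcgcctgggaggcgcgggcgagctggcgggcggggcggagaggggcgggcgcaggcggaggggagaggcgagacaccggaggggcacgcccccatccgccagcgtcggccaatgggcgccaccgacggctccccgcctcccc
Single p53 motifs (1 of the pair that makes up a full p53 site), searched without mismatches, stood in 4 of the 7 windows and in 7.13% of all 32851 windows of that length. In Cdkn1a they lay at -73 to -64 (GGACTAGCTT) and at -51 to -42 (GAACATGTCT) relative to the upstream start, and the second start's window held none. The match of Ccng1 was GGGCAAGCCT at -185 to -176, that of Mdm2 GAACTTGCCT at -186 to -177 and that of Gadd45a GGGCTAGCCC at -40 to -31. The cAMP response element TGACGTCA stood at -166 to -159 of Btg2 and in 1.55% of all windows. The core of the MEIS recognition site, TGACAG, was in 15.9% of all windows and in 0 of these 7. The 4 genes with a p53 motif did not share a direction in the arrays, as the values below show. A match is a description of the letters and not a measured binding site, and a partner motif with a mismatch beside a match was not marked.

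Of the 15 probe sets, 14 passed a filter that keeps a probe set above the 40th percentile of the array on at least 3 of the 12 arrays, as did 31726 of all probe sets. Values are array signals on a linear scale, and the authors' software set the trimmed mean of each array to 100. Tests were made on log2(signal + 16) with limma across all 12 arrays, with p-values adjusted over all probe sets tested by the Benjamini-Hochberg method, and a probe set was called at an adjusted p below 0.05. Against control, 4 of the 14 were higher and 6 lower with MEIS1-WT, where 31% of all probe sets tested were called, 13.1% higher and 17.8% lower. With MEIS1-deltaHD 2 were higher and 9 lower, against 34.5% called (13.8% higher, 20.8% lower). With M33-MEIS1 4 were higher and 6 lower, against 28.9% (11.8% higher, 17.1% lower). The median differences of the 14 were -0.17, -0.48 and -0.28 in that order, and those of all probe sets -0.104, -0.145 and -0.117. The 3 arrays of a construct lay all above or all below the 3 control arrays in 9, 9 and 10 of the 14. Of all probe sets tested, 41.9%, 47% and 38.9% did so, in the same order. A lack of overlap with control, given below for single probe sets, was thus frequent over the whole array. All 3 comparisons use the same control arrays, so their results are not independent of each other.

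The scale of the arrays bears on every difference from control. The median signal of a control array was 17.4 to 21.6, and that of a construct array 13.1 to 16, although all arrays have the same trimmed mean. Setting every array to the same median in place of the same trimmed mean moved the median difference of all probe sets to 0.124, 0.166 and 0.108 for the groups in the same order, and quantile normalization to 0.026, 0.017 and 0.01. Among all called probe sets the share that was higher than control went from 42.4%, 39.8% and 40.8% to 79.1%, 84.3% and 81.9% with equal medians and to 55%, 54.6% and 53.6% with quantile normalization. Of the 14 probe sets of the p53 targets, 5 were then higher and 2, 3 and 3 lower with equal medians. With quantile normalization 3, 1 and 4 were higher and 5, 6 and 5 lower. The falls of Gadd45a and of the bright Cdkn1a and Trp53inp1 probe sets, and the rise of Ccng1, are given below with their size relative to the median of all probe sets, which each scaling shifts.

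**Figure D1:**
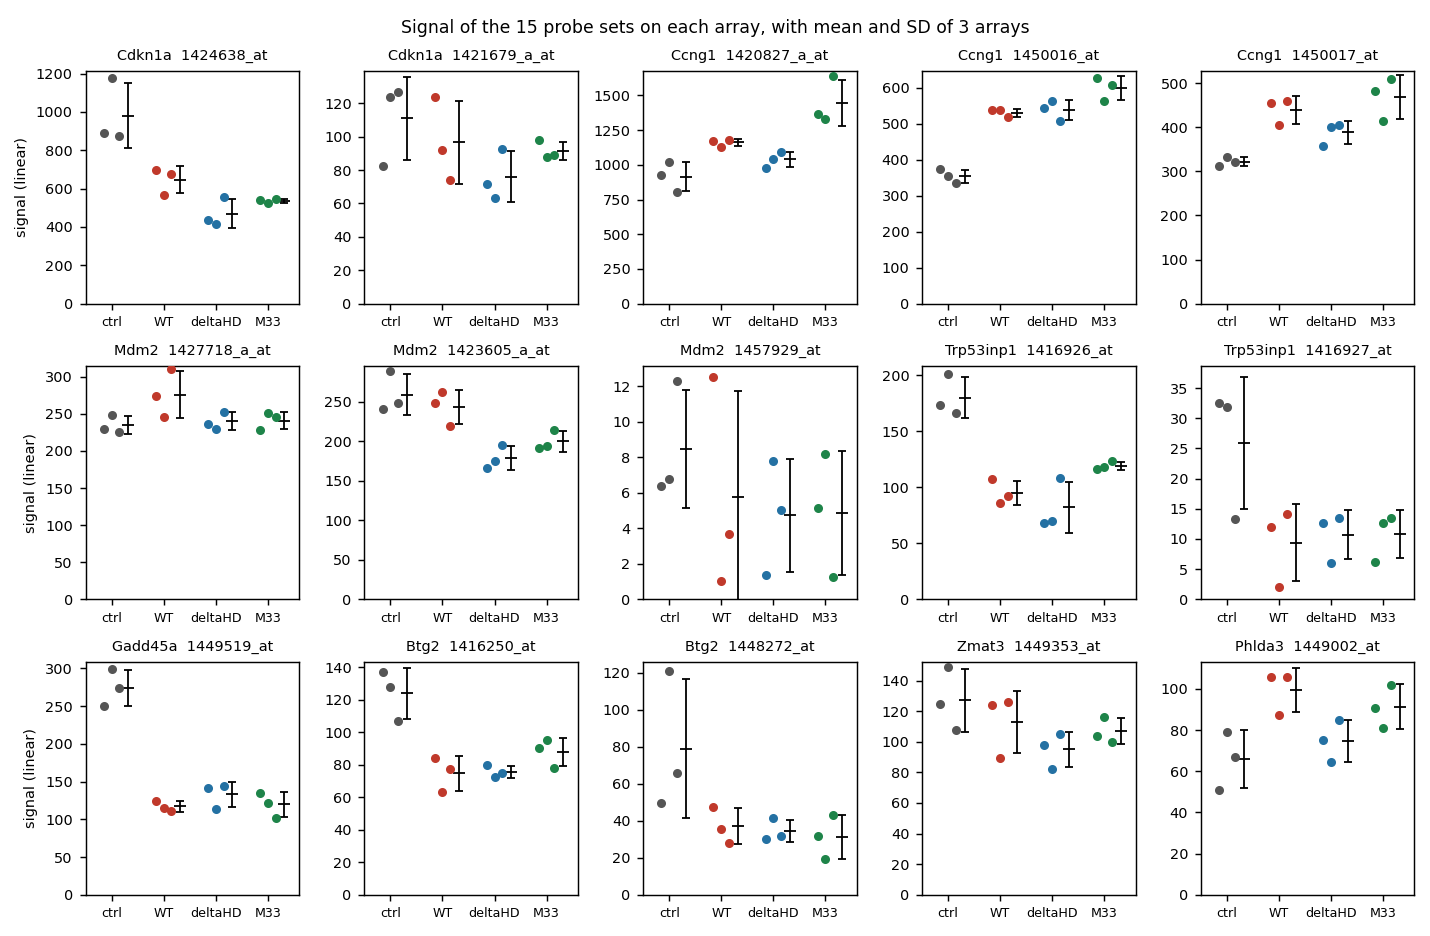
Signal (linear, arbitrary units) of each of the 15 probe sets on the 12 arrays, 1 panel per probe set, with 3 points per group and the mean and SD of the 3 arrays beside them; the lower SD bar of Mdm2 1457929_at in MEIS1-WT runs below 0 and is cut off there. In the Gadd45a panel the 3 control arrays (250 to 299) stand apart from all 9 construct arrays (102 to 144), while in the panel of Ccng1 1450016_at they are the lowest.

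Cdkn1a, the gene of the kinase inhibitor p21, was lower with every construct on its bright probe set 1424638_at. The signals were 892, 1176 and 873 on the control arrays, 698, 569 and 674 with MEIS1-WT, 435, 417 and 556 with MEIS1-deltaHD, and 542, 525 and 545 with M33-MEIS1. No construct array reached the lowest control array, and the M33-MEIS1 arrays were the closest to each other. Mean signals were 980 ± 170, 647 ± 68.9, 469 ± 75.4 and 537 ± 10.8 (SD, n = 3 each). Against control Cdkn1a fell by 0.58 on the log2 scale with MEIS1-WT (SE 0.111, limma adjusted p = 0.000267). With MEIS1-deltaHD it fell by 1.04 (adjusted p = 1.29e-07), and with M33-MEIS1 it fell by 0.84 (adjusted p = 3.95e-06). With equal medians the MEIS1-WT call was lost (-0.22, adjusted p = 0.202), while the others remained at -0.54 and -0.48. Relative to the median of all probe sets, the MEIS1-WT difference was -0.48, -0.72 and -0.34 under the deposited scale, quantile normalization and equal medians.

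The second Cdkn1a probe set, 1421679_a_at, whose suffix marks probes that match several transcripts of a gene, was dimmer and called in 1 comparison. Its signals were 82.4, 124 and 127 in control, 124, 92.1 and 74.1 with MEIS1-WT, 71.7, 63.2 and 92.9 with MEIS1-deltaHD, and 97.8, 87.7 and 89.3 with M33-MEIS1. The groups overlapped, since control replicate 1 lay among the construct arrays. The MEIS1-deltaHD difference of -0.46 (adjusted p = 0.0308) was lost without control replicate 2 or 3 or MEIS1-deltaHD replicate 1 or 2 (adjusted p from 0.0889 to 0.145) and under both other scalings (-0.32 and -0.03). It was lost as well without the low-signal filter (adjusted p = 0.0597) or without the intensity trend of the fit (adjusted p = 0.0811).

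Gadd45a, which encodes a small stress protein that binds PCNA, p21 and the mitotic kinase CDK1, was lower with every construct. Signals were 250, 299 and 274 in control and 124, 115 and 111 with MEIS1-WT. They were 141, 114 and 144 with MEIS1-deltaHD and 135, 122 and 102 with M33-MEIS1. Every construct array was below every control array, and the constructs overlapped with each other. Gadd45a fell by 1.12 with MEIS1-WT (SE 0.115, adjusted p = 5.61e-08), by 0.97 with MEIS1-deltaHD (adjusted p = 5.81e-07) and by 1.10 with M33-MEIS1 (adjusted p = 1.27e-07), signal changes of -57.4%, -51.6% and -56.3%. These calls were kept with equal medians (-0.78, -0.5 and -0.76), and relative to the median of all probe sets they were then -0.91, -0.66 and -0.87. No difference between constructs was called: MEIS1-WT minus MEIS1-deltaHD was -0.16 with a 95% interval from -0.40 to 0.08.

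Btg2, an antiproliferative protein that recruits the deadenylases which shorten mRNA tails, was lower on both probe sets. Probe set 1416250_at gave 137, 128 and 107 in control, 84.3, 63 and 77.2 with MEIS1-WT, 79.6, 72.5 and 75 with MEIS1-deltaHD, and 90.5, 95 and 78.3 with M33-MEIS1. All construct arrays were again below all control arrays. It fell by 0.62 (adjusted p = 0.000489), 0.60 (adjusted p = 0.000621) and 0.43 (adjusted p = 0.0135). The M33-MEIS1 call was lost without control replicate 1 (-0.36, adjusted p = 0.0752) or M33-MEIS1 replicate 3 (-0.36, adjusted p = 0.0602) and with quantile normalization (-0.32, adjusted p = 0.0686). With equal medians all 3 were lost (-0.3, -0.17 and -0.11).

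The other Btg2 probe set, 1448272_at, was dimmer, with signals of 49.7, 121 and 66.1 in control, 47.4, 35.4 and 28.2 with MEIS1-WT, 30.2, 41.5 and 31.8 with MEIS1-deltaHD, and 31.7, 19.4 and 43.1 with M33-MEIS1. Control replicate 2 stood well above the other controls. The differences of -0.79, -0.85 and -0.96 were called (adjusted p = 0.00904, 0.00466 and 0.00207). Without control replicate 2 they were not called for MEIS1-WT (-0.49, adjusted p = 0.098) and MEIS1-deltaHD (-0.55, adjusted p = 0.0553), and without MEIS1-WT replicate 3 the first was not called either (-0.66, adjusted p = 0.052). With equal medians the M33-MEIS1 call was the one that was kept (-0.69, adjusted p = 0.00828).

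Ccng1, the gene of cyclin G1, which brings the phosphatase PP2A to MDM2 and has long served as a marker of p53 activity, went the other way on all 3 of its probe sets. Probe set 1450016_at gave 373, 354 and 336 in control, 537, 537 and 518 with MEIS1-WT, 543, 562 and 508 with MEIS1-deltaHD, and 627, 564 and 609 with M33-MEIS1. Every construct array was above every control array. The signal was 49.8%, 51.9% and 69.4% higher than in control, with log2 differences of 0.56, 0.58 and 0.73 (SE 0.0785 each; adjusted p = 5.34e-06, 3.39e-06 and 1.71e-07). Under all 3 scalings these were called, at 0.51 to 0.92, 0.53 to 1.07 and 0.70 to 1.08, or 0.49 to 0.79, 0.51 to 0.90 and 0.69 to 0.97 relative to the median of all probe sets.

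Probe set 1450017_at gave 313, 332 and 321 for Ccng1 in control, 454, 404 and 460 with MEIS1-WT, 358, 400 and 405 with MEIS1-deltaHD, and 482, 413 and 510 with M33-MEIS1. The groups did not overlap with control, and the differences were 0.43 (adjusted p = 0.000682), 0.26 (adjusted p = 0.0303) and 0.52 (adjusted p = 0.000116). The MEIS1-deltaHD call was lost without control replicate 1 or 3 or MEIS1-deltaHD replicate 2 or 3 (adjusted p from 0.0558 to 0.106). It was lost as well with quantile normalization (0.22, adjusted p = 0.0832) and without the intensity trend (adjusted p = 0.0853).

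The brightest Ccng1 probe set, 1420827_a_at, gave 925, 1018 and 805 in control, 1171, 1129 and 1182 with MEIS1-WT, 980, 1044 and 1094 with MEIS1-deltaHD, and 1364, 1332 and 1637 with M33-MEIS1. The MEIS1-deltaHD arrays overlapped with control, and those of M33-MEIS1 were the highest of all. Differences from control were 0.34 (adjusted p = 0.00445) with MEIS1-WT, 0.18 (adjusted p = 0.115) with MEIS1-deltaHD and 0.65 (adjusted p = 5.59e-06) with M33-MEIS1. Quantile normalization ended the MEIS1-WT call (0.22, adjusted p = 0.0561), equal medians brought the MEIS1-deltaHD difference past the threshold (0.68, adjusted p = 2.64e-06), and so did leaving out control replicate 2 (0.26, adjusted p = 0.031).

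Mdm2, the ubiquitin ligase that removes p53, did not follow either pattern, and its probe sets disagreed. Probe set 1427718_a_at gave 230, 248 and 226 in control, 274, 246 and 310 with MEIS1-WT, 236, 230 and 253 with MEIS1-deltaHD, and 228, 251 and 246 with M33-MEIS1. The arrays of all groups overlapped, apart from 2 high MEIS1-WT arrays. Differences from control were 0.22 (95% interval 0.02 to 0.41, adjusted p = 0.086), 0.03 (-0.17 to 0.23) and 0.04 (-0.16 to 0.23), none of them called. With equal medians all 3 were called as higher (0.56, 0.50 and 0.37), and without MEIS1-WT replicate 2 the first was (0.29, adjusted p = 0.0392).

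Mdm2 probe set 1423605_a_at gave 241, 289 and 248 in control, 249, 262 and 220 with MEIS1-WT, 166, 175 and 195 with MEIS1-deltaHD, and 191, 194 and 215 with M33-MEIS1. Here the MEIS1-WT arrays overlapped with the controls and the others lay below. It fell by 0.50 with MEIS1-deltaHD (adjusted p = 0.00043) and by 0.35 with M33-MEIS1 (adjusted p = 0.0111), while MEIS1-WT was -0.08 from control (adjusted p = 0.59). With equal medians both calls disappeared (-0.02 and -0.01), and the M33-MEIS1 call was lost without control replicate 2 (-0.27, adjusted p = 0.0653). The remaining probe set, 1457929_at, did not pass the filter, at 1.03 to 12.5 signal units on the 12 arrays.

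Trp53inp1, a stress protein that p53 induces and that takes part in autophagy and cell death, was lower with each construct on probe set 1416926_at. Signals were 173, 201 and 166 in control, 107, 85.5 and 91.8 with MEIS1-WT, 68.5, 69.6 and 108 with MEIS1-deltaHD, and 116, 118 and 123 with M33-MEIS1. All 9 construct arrays were below the controls, and MEIS1-deltaHD replicate 3 lay apart from the others of its group. It fell by 0.82 (adjusted p = 4.18e-05), 1.02 (adjusted p = 2.65e-06) and 0.53 (adjusted p = 0.00424). With equal medians the MEIS1-WT and MEIS1-deltaHD calls were kept (-0.49 and -0.57), and the M33-MEIS1 call was lost (-0.21, adjusted p = 0.367). Relative to the median of all probe sets the differences with equal medians were -0.62, -0.73 and -0.31. The dim probe set 1416927_at gave 32.6, 31.8 and 13.3 in control against 2.06 to 14.1 on the construct arrays, with MEIS1-WT at 11.9, 2.06 and 14.1, MEIS1-deltaHD at 12.6, 6 and 13.4 and M33-MEIS1 at 6.21, 12.6 and 13.5. Its differences of -0.72 (adjusted p = 0.0249) and -0.63 (adjusted p = 0.0477) with MEIS1-WT and MEIS1-deltaHD were lost without control replicate 1 or 2, MEIS1-WT replicate 2 or any one MEIS1-deltaHD array (adjusted p from 0.0586 to 0.182), and with both other scalings. That of M33-MEIS1 (-0.62, adjusted p = 0.0568) passed without control replicate 3 (-0.86, adjusted p = 0.0126).

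Zmat3, a zinc finger protein that binds RNA and is a p53 target in many tissues, was called in 1 comparison with control. Its probe set 1449353_at gave 125, 149 and 108 in control, 124, 89.6 and 126 with MEIS1-WT, 98.2, 82.1 and 105 with MEIS1-deltaHD, and 104, 116 and 99.9 with M33-MEIS1. The MEIS1-deltaHD arrays were below the controls and the other groups overlapped with them. The MEIS1-deltaHD difference of -0.36 was called (adjusted p = 0.0389), but it turned to 0.08 with equal medians and was lost with quantile normalization (-0.25, adjusted p = 0.181). It was also lost without control replicate 1 or 2 or MEIS1-deltaHD replicate 1 or 2 (adjusted p from 0.066 to 0.19), and without the low-signal filter or without the intensity trend (adjusted p = 0.0612 and 0.0774). MEIS1-WT and M33-MEIS1 were at -0.16 (95% interval -0.43 to 0.12) and -0.22 (-0.50 to 0.06), and both turned positive with equal medians (0.17 and 0.10).

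Phlda3, which competes with the kinase AKT for membrane lipids and so limits survival signalling, was higher with 2 constructs. Its probe set 1449002_at gave 51.1, 79.2 and 67.1 in control, 106, 87.2 and 106 with MEIS1-WT, 75.3, 64.3 and 84.8 with MEIS1-deltaHD, and 90.8, 80.9 and 102 with M33-MEIS1. The MEIS1-WT and M33-MEIS1 arrays were above the controls, and MEIS1-deltaHD overlapped with them. Differences were 0.51 (adjusted p = 0.00746) with MEIS1-WT, 0.16 (adjusted p = 0.412) with MEIS1-deltaHD and 0.40 (adjusted p = 0.0352) with M33-MEIS1. Control replicate 1 was the lowest array, and without it the calls were lost (0.37, adjusted p = 0.065 and 0.27, adjusted p = 0.205). The M33-MEIS1 call was lost too without control replicate 3 or M33-MEIS1 replicate 1 or 3 (adjusted p from 0.0531 to 0.128), and without the low-signal filter, without the intensity trend of the fit or with the 6 arrays of both groups alone (adjusted p = 0.0571, 0.0636 and 0.0643). With equal medians the MEIS1-deltaHD difference was called as well (0.57, adjusted p = 0.0032).

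**Figure D2:**
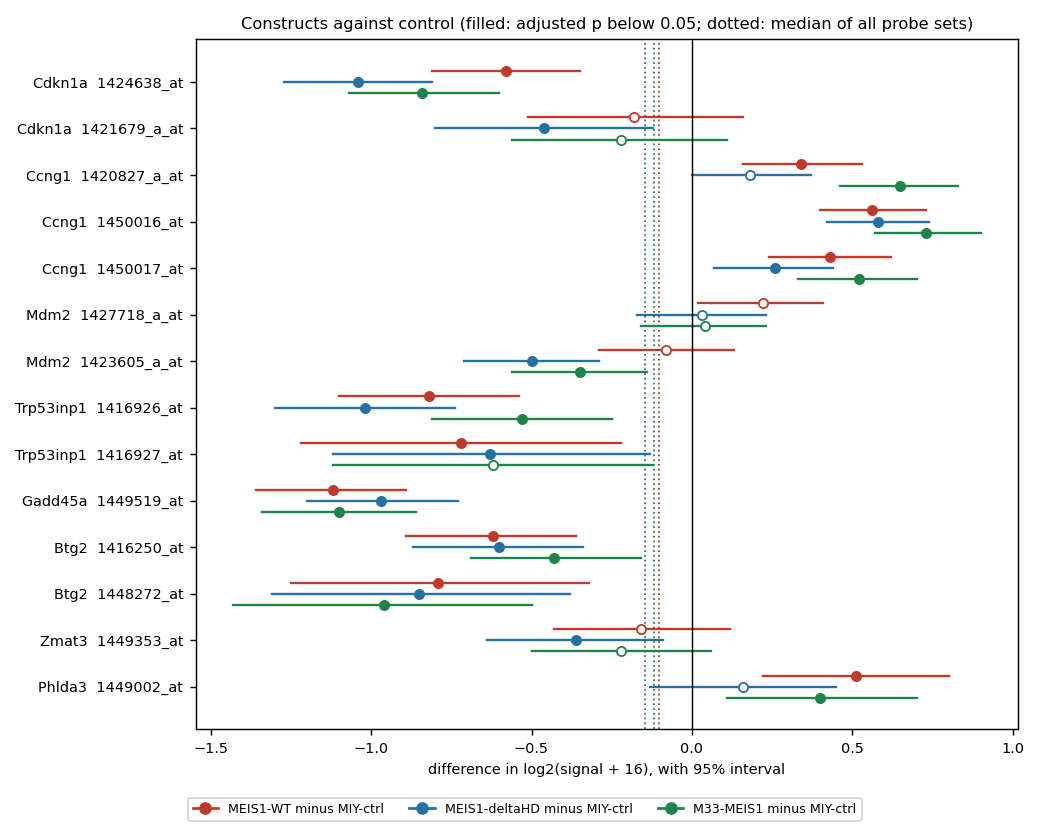
Difference of each construct from control in log2(signal + 16) for the 14 probe sets that passed the filter; bars are 95% intervals of the limma fit, filled points have an adjusted p below 0.05, and dotted lines are the medians of all probe sets. Gadd45a lies at -1.12 to -0.97 for all constructs and Ccng1 1450016_at at 0.56 to 0.73.

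**Figure D3:**
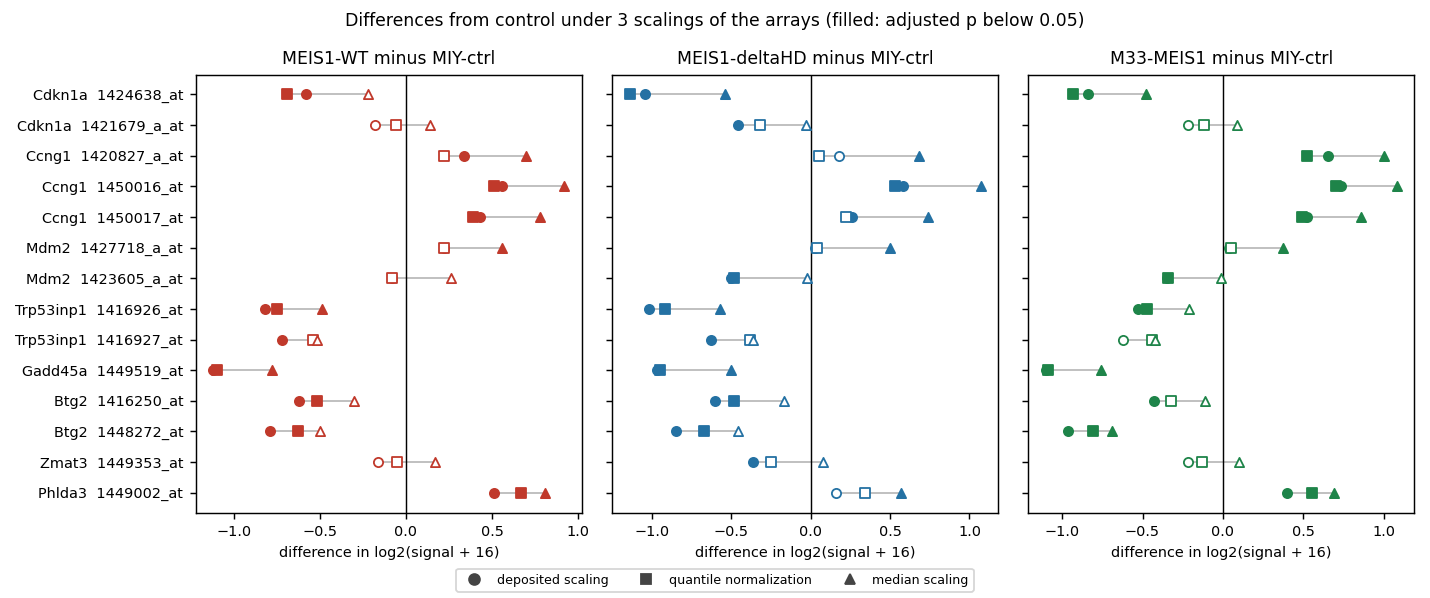
The same differences under the deposited scale (circles), quantile normalization (squares) and equal array medians (triangles), with filled symbols for an adjusted p below 0.05. Equal medians shift every probe set to the right, so that Zmat3 in MEIS1-deltaHD goes from -0.36 to 0.08, while Gadd45a remains called below 0 and Ccng1 1450016_at above 0 in all panels.

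The constructs differed from each other in few of these probe sets. Between MEIS1-WT and MEIS1-deltaHD 2 of 14 were called, both higher with MEIS1-WT, against 4.53% of all probe sets tested (2.11% higher, 2.42% lower). These were Cdkn1a 1424638_at (0.46, 95% interval 0.23 to 0.69, adjusted p = 0.0154) and Mdm2 1423605_a_at (0.42, 0.21 to 0.62, adjusted p = 0.0146). M33-MEIS1 was higher than MEIS1-deltaHD in 1, against 0.492% of all (0.438% higher, 0.0536% lower). It was higher than MEIS1-WT in 1, against 5.54% (3.36% higher, 2.19% lower). Both were Ccng1 1420827_a_at (0.46, 0.28 to 0.65, adjusted p = 0.0124, and 0.31, 0.12 to 0.49, adjusted p = 0.0433). The comparisons share arrays in pairs, and all 4 calls were lost with equal medians (adjusted p from 0.127 to 0.225) and without the intensity trend (adjusted p from 0.0804 to 0.215).

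Each of these 4 calls could also be lost by leaving out a single array, which leaves fewer arrays to the fit. Cdkn1a was not called without MEIS1-WT replicate 1 or 3 or MEIS1-deltaHD replicate 1 or 2 (adjusted p from 0.0702 to 0.122), nor was Mdm2 without MEIS1-WT replicate 1 or 2 or MEIS1-deltaHD replicate 1 or 2 (adjusted p from 0.0636 to 0.102). Ccng1 lost its difference from MEIS1-deltaHD without replicate 1 or 2 of that group or M33-MEIS1 replicate 3 (adjusted p from 0.0692 to 0.114). Its difference from MEIS1-WT was lost without any one MEIS1-WT array or M33-MEIS1 replicate 1 or 3 (adjusted p from 0.0537 to 0.252). Trp53inp1 1416926_at was 0.48 higher with M33-MEIS1 than with MEIS1-deltaHD (0.20 to 0.76, adjusted p = 0.14), and without MEIS1-deltaHD replicate 3 this passed (0.67, adjusted p = 0.0136). For Gadd45a and both Btg2 probe sets no difference between constructs was called, and the intervals of Btg2 1448272_at, from -0.64 at the lowest to 0.53 at the highest, are too wide to show that the constructs act alike.

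**Figure D4:**
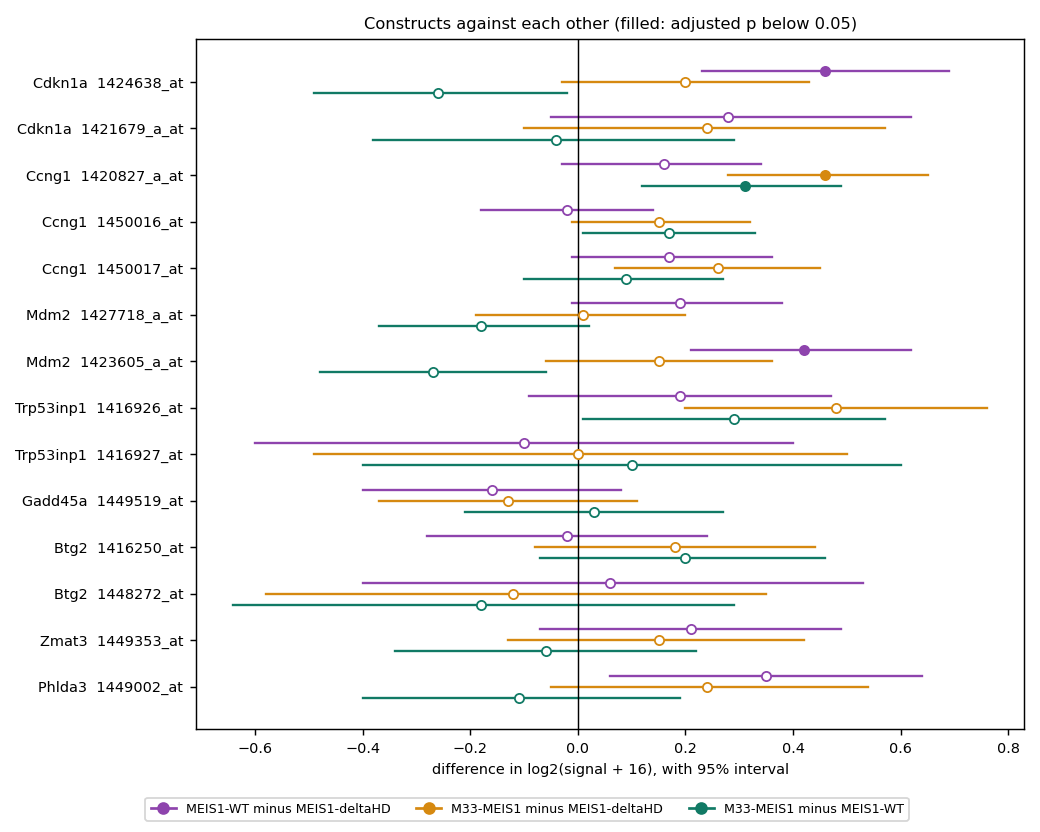
Differences between constructs in log2(signal + 16) with 95% intervals for the same 14 probe sets; filled points have an adjusted p below 0.05. The filled points are Cdkn1a 1424638_at and Mdm2 1423605_a_at for MEIS1-WT minus MEIS1-deltaHD (0.46 and 0.42) and Ccng1 1420827_a_at for M33-MEIS1 minus each other construct (0.46 and 0.31).

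In order of their level, control was highest and the constructs did not differ between neighbours for Cdkn1a 1424638_at, Trp53inp1 1416926_at, Gadd45a and both Btg2 probe sets. For Ccng1 1450016_at and 1450017_at control was lowest and neighbouring constructs did not differ. For Ccng1 1420827_a_at M33-MEIS1 was highest and differed from its neighbour MEIS1-WT. In Mdm2, Zmat3 and Phlda3 no neighbours in the order differed.

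Across the 12 arrays, the brightest probe sets of Cdkn1a, Trp53inp1, Gadd45a and Btg2 correlated at 0.77 to 0.88 (Pearson's r). Zmat3 correlated with these genes at 0.81, 0.71, 0.56 and 0.72, in that order. Ccng1 correlated with Phlda3 at 0.69 and with Gadd45a at -0.71, but with Cdkn1a, Btg2 and Trp53inp1 at -0.41, -0.4 and -0.2. The points share the 4 groups, of which control stands apart, which these values carry. The brightest Mdm2 probe set was called in no comparison and was left out here. The 3 genes whose pattern was most like each other target were sought among 14004 others. For Cdkn1a they were Herpud1 (0.966), a gene of the endoplasmic reticulum stress response, Serpinb2 (0.966) and Pag1 (0.965). For Gadd45a they were Mknk1 (0.977), Parp12 (0.975) and Irgm1 (0.974), and for Trp53inp1 they were Gpat3 (0.982), Myh9 (0.965) and Tcn2 (0.962). For Btg2 they were Stxbp6 (0.974), Dip2a (0.974) and Cdc37l1 (0.96), for Ccng1 Zmym1 (0.923), Gigyf2 (0.905) and Cd48 (0.896), for Phlda3 Armcx3 (0.946), 2310057M21Rik (0.888) and Plod2 (0.877), and for Zmat3 Ceacam20 (0.906), Msh5 (0.905) and Cbx2 (0.891).

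The regulators of p53 were mixed. Each gene of this and the following lists was read on its brightest probe set past the filter, a level at which 36.4%, 40.5% and 34.4% of 14005 genes were called against control in the order used above (16.1%, 16.7% and 15.1% higher, 20.2%, 23.7% and 19.3% lower). Of 18 regulators measured, 5, 5 and 4 rose and 2, 5 and 4 fell. Hipk2, a kinase that phosphorylates p53, rose from 362 ± 27.9 in control to 801 ± 28.6 with MEIS1-WT (1.12, adjusted p = 1.02e-09) and to 475 ± 47.8 and 477 ± 40 with the others (0.38 each, adjusted p = 0.0018 and 0.00207). The checkpoint kinase gene Chek1 rose by 0.73, 0.54 and 0.47 and Dyrk2 by 0.55, 0.51 and 0.46, the highest adjusted p being 0.00336. Mdm4, the partner of MDM2, fell, with log2 differences of -0.38, -0.57 and -0.45 (adjusted p = 0.00548, 9.37e-05 and 0.0015), a call that equal medians removed (-0.04, -0.1 and -0.11). The other regulators called, named after their values were seen, were Atr, Usp7 and Kat5, each higher in 1 or 2 comparisons (0.23 to 0.32), and Crebbp, Ep300, Rchy1 and Rpl11, each lower in 1 to 3 (-0.55 to -0.25). With equal medians 11, 13 and 10 regulators were higher and 0 lower. Under that scaling 9977, 11452 and 8818 of all 31726 probe sets were called, and 79.1%, 84.3% and 81.9% of these were higher. The counts given with equal medians for this and the following lists stand beside that shift. Without control replicate 3 the 5 that rose with MEIS1-WT or MEIS1-deltaHD were 3, as they were without MEIS1-deltaHD replicate 3, and without MEIS1-WT replicate 2 the 2 that fell were 1.

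The p53 targets of apoptosis split in direction. Of 12 measured, 4 rose in each comparison and 4, 4 and 3 fell, and with equal medians 4, 5 and 5 rose and 1, 2 and 1 fell. Bbc3, the gene of the death protein PUMA, fell from 265 ± 31.5 to 184 ± 21.9, 111 ± 6.12 and 129 ± 22.9 (-0.49, -1.15 and -0.97, adjusted p = 0.00285, 9.87e-08 and 1.67e-06). The death receptor gene Fas fell from 47.8 ± 11.6 to 11 ± 8.04, 11.6 ± 4.77 and 23.1 ± 4.77 (-1.28, -1.21 and -0.7, adjusted p = 9.11e-05, 0.000157 and 0.0205). The last of these was lost without control replicate 1 (-0.56, adjusted p = 0.113) or M33-MEIS1 replicate 3 (-0.6, adjusted p = 0.0769) and with both other scalings. Siva1 rose from 459 ± 29.1 to 915 ± 44.6, 1020 ± 59.5 and 934 ± 78.8 (0.97, 1.12 and 1.00), and Pidd1, the gene of a death-domain scaffold, by 0.90, 0.68 and 0.83. The other genes called, named after their values were seen, were Ei24 (0.59, 0.54 and 0.58) and Aen (0.46, 0.38 and 0.48), which rose, and Perp and Apaf1 with MEIS1-WT and MEIS1-deltaHD and Trp53i11 with M33-MEIS1, which fell. Bbc3 with MEIS1-WT was -0.15 with equal medians and not called.

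Among 10 targets of DNA repair and metabolism, 3 rose in each comparison and 3, 5 and 3 fell, and with equal medians 4 rose and 1, 2 and 1 fell. Rrm2b, a subunit of ribonucleotide reductase, fell from 129 ± 16.4 to 71 ± 3.99, 59.5 ± 5.52 and 70.9 ± 9.12 (-0.73, -0.93 and -0.73, adjusted p = 9.38e-05, 3.9e-06 and 0.000107). Polk, a translesion polymerase, fell, with log2 differences of -0.41, -0.84 and -0.44, of which the MEIS1-deltaHD call alone was kept under both other scalings. Tigar, which diverts sugar from glycolysis, rose from 26.8 ± 4.88 to 67.6 ± 6.5, 81.3 ± 18.9 and 66.7 ± 16.5 (0.97, 1.17 and 0.94). Sesn2, a stress-induced inhibitor of mTORC1 signalling, fell by 0.64 and 0.66 with MEIS1-deltaHD and M33-MEIS1, and both were lost with equal medians. The MEIS1-deltaHD call was lost with quantile normalization too (-0.47, adjusted p = 0.0543). Sesn2 stood at -0.4 with MEIS1-WT (adjusted p = 0.0993), which passed without MEIS1-WT replicate 2 or 3 (-0.54 each). The other genes called were, named after their values were seen, Polh in all comparisons (0.46, 0.56 and 0.55), Sesn1 with MEIS1-WT and Gpx1 with the others, which rose, and Ddb2 with MEIS1-WT and Xpc and Ercc5 with MEIS1-deltaHD, which fell. The 5 that fell with MEIS1-deltaHD were 3 without replicate 1 of that group.

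Of 13 further p53 targets 2, 1 and 1 rose and 1, 3 and 3 fell, and with equal medians 3, 2 and 2 rose and 1, 2 and 1 fell. The membrane protein gene Cd82 fell from 273 ± 13.6 to 103 ± 17.2, 145 ± 9.05 and 166 ± 27.1 (-1.29, -0.85 and -0.68, adjusted p = 1.32e-08, 6.98e-06 and 0.000141), the last not called with equal medians (-0.34, adjusted p = 0.0776). Those that rose, named after their values were seen, were Ckap2, a gene of a spindle-associated protein (0.52, 0.43 and 0.48), and with MEIS1-WT Ak1 (0.57, adjusted p = 0.0122). With M33-MEIS1, Plk2 was the third gene that fell (-0.54, adjusted p = 0.046). Pltp fell with MEIS1-deltaHD (-0.87, adjusted p = 0.00139) and Sfn, the gene of 14-3-3 sigma, with M33-MEIS1 (-0.9, adjusted p = 0.00498). Ephx1 fell with MEIS1-deltaHD (-0.62, adjusted p = 0.0238), with a dim signal of 15.6 in control. This call was lost without control replicate 1 or 2 or MEIS1-deltaHD replicate 2. It was also lost with quantile normalization and with equal medians (adjusted p = 0.162 and 0.137). With MEIS1-deltaHD, 5 of the 13 fell without replicate 1 of that group. With MEIS1-WT, 1 rose without control replicate 1, 1 rose and 2 fell without MEIS1-WT replicate 3, and with M33-MEIS1 2 rose without its replicate 1.

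Relatives of the targets from the same gene families were called lower where they were called: 0 of 16 rose and 6 fell in each comparison, and with quantile normalization 1 rose with MEIS1-deltaHD and 1 with M33-MEIS1. Mdm4, given above as a regulator of p53, belongs to this list too and is among those that fell. Btg1, the sister of Btg2, fell from 1150 ± 126 to 360 ± 33.8, 390 ± 43.1 and 394 ± 71.8 (-1.63, -1.52 and -1.51, adjusted p = 1.23e-10, 5e-10 and 7.69e-10). Gadd45g fell, with log2 differences of -1.38, -1.05 and -0.93 from 49.8 ± 2.12. Cdkn1b, the gene of the kinase inhibitor p27, fell, with log2 differences of -0.66, -1.04 and -0.73. Ccng2, the sister of Ccng1, fell, with log2 differences of -0.43, -0.90 and -0.60. With MEIS1-WT the Ccng2 call was lost without control replicate 1 or 3 or MEIS1-WT replicate 2 (adjusted p from 0.0585 to 0.0984). With equal medians, 2, 3 and 4 relatives rose and 2, 4 and 2 fell, and the Cdkn1b and Ccng2 calls of MEIS1-WT and M33-MEIS1 were lost. Without control replicate 3, 1 and 2 relatives rose with MEIS1-deltaHD and M33-MEIS1, and 1 rose without M33-MEIS1 replicate 2.

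The cyclins, kinases and PCNA that p21 binds or holds down included more genes that rose than fell. Of 12 measured, 7 rose and 1 fell in each comparison, and the median differences were 0.44, 0.43 and 0.44 against -0.097, -0.143 and -0.1 for all genes. Ccne1 and Ccne2, the E cyclins that start S phase, rose by 1.55, 1.57 and 1.43 and by 1.37, 0.99 and 1.28. Ccna2, the A cyclin of S and G2 phase, went from 503 ± 105 in control to 1080 ± 28.4, 1140 ± 72 and 1110 ± 67 (1.10, 1.17 and 1.13, adjusted p = 1.8e-08, 7.96e-09 and 1.94e-08). The mitotic kinase gene Cdk1 went from 718 ± 120 to 1350 ± 108, 1360 ± 20.6 and 1350 ± 61.7 (0.91, 0.92 and 0.91). Ccne1 was read on a probe set whose suffix, _x_at, marks probes that may match other genes. The gene that fell was Ccnd1, the gene of cyclin D1, named after its values were seen (-0.73, -0.83 and -0.75, adjusted p = 0.00582, 0.0018 and 0.00543), and with M33-MEIS1 it was not called without replicate 1 of that group. Under quantile normalization 7, 7 and 6 rose, and with equal medians 10, 11 and 11 rose and 0 fell.

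Of 19 E2F and DREAM components, 6, 8 and 8 rose and 3, 3 and 2 fell, and with equal medians 12, 13 and 11 rose and 1 fell. Mybl2, which drives G2/M genes, rose from 153 ± 41.6 to 307 ± 10.4, 341 ± 28.7 and 305 ± 36.6 (0.96, 1.10 and 0.95), and the repressor gene E2f7 rose by 0.97, 0.80 and 0.67. Tfdp2, a dimer partner of E2F proteins, fell, with log2 differences of -0.54, -0.91 and -0.82, the first not called with equal medians (-0.21, adjusted p = 0.33). E2f2 fell by 1.05 with MEIS1-WT (adjusted p = 9.43e-05) and by 0.56 with MEIS1-deltaHD (adjusted p = 0.0206). The third gene that fell with both, and the second with M33-MEIS1, was the retinoblastoma gene Rb1, named after its values were seen (-0.48, -0.55 and -0.52). The E2f2 call with MEIS1-deltaHD was lost without control replicate 1 or 3 or MEIS1-deltaHD replicate 1 (adjusted p from 0.0559 to 0.13). It was also lost with quantile normalization (-0.4, adjusted p = 0.124) and with equal medians (-0.15, adjusted p = 0.619). The 8 that rose were 5 without control replicate 2 or MEIS1-deltaHD replicate 1 in that comparison, and 5 without M33-MEIS1 replicate 2 in the other.

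Most stress genes of a list controlled by ATF4 fell with each construct, beside Cdkn1a, Gadd45a and Trp53inp1. The list shares Sesn2 with the p53 targets of DNA repair and metabolism given above. Of 12 measured, 1 rose and 8 fell with MEIS1-WT, 12 fell with MEIS1-deltaHD and 11 fell with M33-MEIS1, with medians of -0.83, -1.07 and -0.96. Trib3 fell from 834 ± 140 to 87.1 ± 10.2, 61 ± 17.4 and 79.5 ± 9.57 (-3.03, -3.48 and -3.14, adjusted p = 1.73e-13, 2.69e-14 and 3.25e-13). Atf5 fell, with log2 differences of -2.74, -2.99 and -2.81, Nupr1 with log2 differences of -2.00, -3.23 and -2.74, and Atf3, a stress factor that binds cAMP response elements, with log2 differences of -1.59, -1.79 and -1.81. With equal medians 6, 8 and 9 fell. The gene that rose with MEIS1-WT was Ddit4, named after its values were seen (0.34, adjusted p = 0.0458), which fell with MEIS1-deltaHD (-0.61, adjusted p = 0.000527). Its rise was not called with quantile normalization or without control replicate 2 or 3 or MEIS1-WT replicate 2 or 3. The part of these genes in the fall of the p53 targets was not tested.

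Immediate early genes, to which Btg2 is often counted, also fell: 6, 10 and 13 of 14, while 1 rose with MEIS1-WT. The latter was Egr3, named after its values were seen (0.81, adjusted p = 0.0152), which fell with M33-MEIS1 (-0.74, adjusted p = 0.0281). Fos fell from 793 ± 151 to 100 ± 24.7, 118 ± 11.1 and 90.9 ± 14 (-2.80, -2.58 and -2.91). Klf4, a regulator of monocyte differentiation that also activates Cdkn1a, fell from 96 ± 1.75 to 7.59 ± 1.64, 17.1 ± 2.37 and 32.7 ± 3.79 (-2.25, -1.76 and -1.20). Egr1 fell (-1.48 and -2.01) with MEIS1-deltaHD and M33-MEIS1 and stood at -0.29 with MEIS1-WT (adjusted p = 0.221), which passed without control replicate 3 (-0.47, adjusted p = 0.0466). Egr2 fell, with log2 differences of -0.74, -1.12 and -0.83, and the first and the last were lost without control replicate 2 (adjusted p = 0.0983 and 0.0506). The first was also lost without MEIS1-WT replicate 1 and with equal medians (-0.48, adjusted p = 0.0632). With equal medians 3, 6 and 8 of the 14 fell, and 3 rose with MEIS1-WT.

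**Figure D5:**
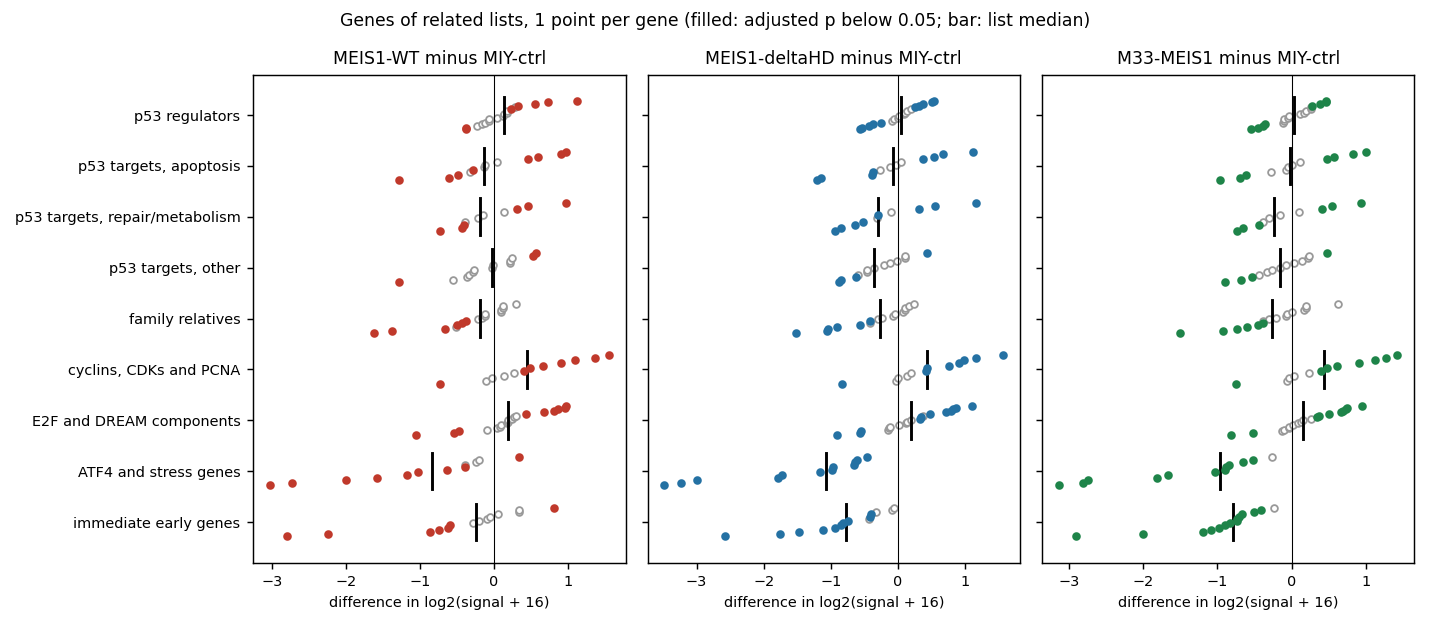
Difference from control in log2(signal + 16) of each gene of 9 related lists, 1 point per gene on its brightest probe set, in 1 panel per construct; filled points have an adjusted p below 0.05 and black bars are list medians. The ATF4 list lies furthest to the left (medians -0.83, -1.07 and -0.96), and the cyclins, CDKs and PCNA lie to the right (0.44, 0.43 and 0.44).

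The summed signals of several lists of cell type markers differed between the groups, though not every marker of a list went the same way. The summed signal of 10 monocyte and macrophage markers, all past the filter, was 13060 to 14320 on the control arrays, 1233 to 1471 with MEIS1-WT, 3006 to 3253 with MEIS1-deltaHD and 4409 to 5171 with M33-MEIS1. The 9 neutrophil markers summed to 14490 to 18350, 13770 to 14490, 20880 to 22300 and 21410 to 25020 in the same order, and 9 markers of mast cells and basophils to 3060 to 4012, 2390 to 2518, 2524 to 2648 and 4296 to 4617. With the constructs in that order, 0, 6 and 7 neutrophil markers were called higher than control and 4, 0 and 0 lower. For mast cells and basophils 2, 2 and 4 were called higher and 6, 6 and 2 lower. Fewer cells of a type and less RNA per cell cannot be told apart in these bulk samples. The part of the monocyte markers in the fall of Cdkn1a, Gadd45a, Btg2 and Trp53inp1 was not tested. Fibroblast markers, which the virus-producing cells could bring, summed to 346.9 to 439.5 in control and 166.8 to 270.8 in the constructs, with Col3a1, Dcn, Lum and Postn below the filter. The 7 megakaryocyte markers measured summed to 925.4 to 1107 in control, 1508 to 2228 with MEIS1-WT, 612.2 to 823 with MEIS1-deltaHD and 1100 to 1561 with M33-MEIS1. Of these 7, 1, 0 and 1 were called higher and 0, 3 and 1 lower, in the order of the constructs. Of the haematopoietic markers 8 of 8 passed the filter, and their sum was 14970 to 16290 in control and 10800 to 11340, 12090 to 12500 and 12650 to 13440 with the constructs, where 6, 4 and 4 were called lower and 0, 0 and 1 higher. The part of these markers in the results was not tested either. B, T and NK, and erythroid markers each summed to at most 199 on any array.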

How the data were processed

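RNA of 12 cultures was measured on Affymetrix mouse arrays. The deposited intensity values are linear signals that the authors made with GCOS 1.2, per the submitters' processing notes, and the values show that each array's 2% trimmed mean is 100. Gene names are those of the platform annotation, in which 34945 probe sets have 1 symbol, 932 several and 9160 none, and 64 array controls were left out. Probe sets above the 40th percentile on at least 3 of 12 arrays were kept (31726). Tests used log2(signal + 16), limma 3.58.1 in R 4.3.3 (lmFit, contrasts and eBayes with an intensity trend, 8 residual degrees of freedom) over all 12 arrays, each probe set singly, with Benjamini-Hochberg adjustment within each of 6 comparisons. A fold on this scale understates the change of dim probe sets, and 3 arrays a group limit the precision. The procedure was tested on simulated data.

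The genes and all lists were chosen with earlier results of these data known, so no list is independent evidence. Named are all probe sets of the targets, up to 4 called genes of each other list with the largest difference from control, and the 3 genes most like each called target. Alternatives were other pseudocounts and scalings, no filter, no trend, 1 probe set per gene, _x_at and _s_at probe sets left out, 6-array fits, the replicate number as a block and each array left out. Samples with the same replicate number did not deviate together: all 18 correlations of their deviations lay between -0.047 and 0.028, so the numbers were not taken as pairs. Promoters were read from RefSeq tables with Python 3.11.15.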

Additional observations from a re-analysis of the deposited data

How the results depend on the processing

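Of 35 called differences of the p53 target probe sets, 14 were called in the same direction under every alternative and every omission of an array that was run, and of 49 not called, 42 were never called. Between control and constructs, the 10, 11 and 10 called probe sets (MEIS1-WT, MEIS1-deltaHD, M33-MEIS1) became 6, 5 and 6 with 1 probe set per gene, where 8 were tested. With MEIS1-deltaHD they became 7 with quantile normalization and 7 without the intensity trend. Between MEIS1-WT and MEIS1-deltaHD the 2 called became 1 with 1 probe set per gene, 0 with equal medians and 0 without the trend. For M33-MEIS1 against MEIS1-deltaHD, 1 called became 0 with equal medians and 0 without the trend. For M33-MEIS1 against MEIS1-WT, 1 called became 0 with equal medians, without the trend, without the low-signal filter and with the replicate block. The replicate number as a block gave 10, 9, 10, 2, 1 and 0 calls in the 6 comparisons, although the numbers do not pair the samples, and 4 of 12 arrays correlated best with their own number. With the block the calls of Zmat3 (adjusted p = 0.0503) and Trp53inp1 1416927_at (0.0574) with MEIS1-deltaHD and of Ccng1 1420827_a_at between M33-MEIS1 and MEIS1-WT (0.0604) were lost. The call of Trp53inp1 1416927_at with MEIS1-deltaHD was lost also without the filter (0.0831), without the trend (0.0627) and with a pseudocount of 4 (0.0914), and with a pseudocount of 64 its difference with M33-MEIS1 was called (0.0334). Leaving out 1 array gave 8 to 10 calls with MEIS1-WT, 7 to 9 with MEIS1-deltaHD, 8 to 10 with M33-MEIS1, and 0 to 2, 0 to 2 and 0 to 1 between constructs in the order above. Of the called differences 1 turned: Zmat3 with MEIS1-deltaHD was 0.08 (adjusted p = 0.743) with equal medians. Over all probe sets of the targets and alternatives 90 calls were lost, the one that turned included, and 10 gained. Quantile normalization moved list counts by over 1.5 times for apoptosis targets lower with M33-MEIS1 (1), repair targets lower with MEIS1-WT (1) and MEIS1-deltaHD (3), E2F components higher with MEIS1-WT (10), relatives higher with MEIS1-deltaHD and with M33-MEIS1 (1 each, from 0), and the stress gene higher with MEIS1-WT (0, from 1). List counts and list genes under other scalings and without single arrays were computed after seeing the data. The causes of these changes were not tested. The dim probe set Trp53inp1 1416927_at is limited by signals near background. Btg2 1448272_at is limited by the spread of its control arrays, with an SD of 37.6 around a mean of 79.1.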
